A study of Mus musculus with 30 samples.

Results

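Total RNA of testis from Ythdc2 knockout mice at postnatal day 8 was compared with total RNA of wild-type testis of the same age. The knockout group held 3 animals labelled homozygous for loss of Ythdc2 and the wild-type group 3 animals, all of strain C57BL/6J, and every animal also gave a ribosome footprint library. These 6 total RNA libraries are part of a series of 30, which also holds testis of day 10 and of adults. At day 10, 3 homozygous knockout animals were set against 2 heterozygous and 1 wild-type animal, and in adults of 20 to 24 weeks 3 animals homozygous for another allele, called WLA, against 3 heterozygous ones, again all C57BL/6J. The members were all 15145 genes for which the authors' deposited table gives a total RNA effect at day 8, against 14846 genes at day 10 and 55566 features in the adult count table. The effect is the difference of the knockout from the wild type as estimated by anota2seq, a program that analyses total and ribosome-bound mRNA together. It is positive where RNA was higher in the knockout, and it was read as log2. The labels do not describe how the allele was made, and the libraries were made from testis as a whole. In such bulk samples fewer cells of a type and less RNA per cell cannot be told apart.

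YTHDC2 is an RNA helicase of germ cells that carries a YTH domain, the fold known for reading N6-methyladenosine in RNA, and it works with the proteins MEIOC and RBM46 and with the exonuclease XRN1. It is known for the switch by which spermatogonia, the mitotic cells at the rim of the seminiferous tubule, leave the mitotic cycle and stay in meiosis. In the mouse testis the first wave of spermatogonia differentiates after birth under retinoic acid. Retinoic acid also turns on Stra8 and Meiosin, the pair of transcription factors that start the meiotic programme. Chromosome axes are then assembled from cohesins and HORMA-domain proteins, breaks are made in the DNA, and the synaptonemal complex joins the homologous chromosomes.

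Effects at day 8 were small on the scale of the authors' values, which a transformation may have narrowed. Over the 15145 genes the median was -0.0024, the quartiles were -0.033 and 0.030, and the standard deviation was 0.057. The lowest effect was -0.71 and the highest 0.69. Only 51 genes lay at 0.2 or more and 25 at -0.2 or less. In the authors' deposited table (anota2seq) 8 genes had an adjusted p under 0.05, which is 0.0528% of the genes tested, with 4 higher and 4 lower. A further 12 had an adjusted p between 0.05 and 0.15, so that 20 genes, 0.132% of those tested, lay under 0.15. The table gives 1 effect per gene and no value per animal, so neither a spread between the animals nor the depth behind a gene can be given here. Ythdc2 itself is not analysed here, so the knockout labels were not checked through the targeted gene, and the direction of the effects rests on the authors' description of the table.

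The upstream sequences of genes in the groups described below are shown first, because several of these groups share short sequence words. All come from RefSeq on GRCm38.p6, the assembly known as mm10, and were searched on both strands over 250 bases before the first listed start of 11787 genes of the table. The word CACGTG is an E-box, the form bound by MAX and MGA, which sit in a complex that keeps germline genes silent in other cells. It was present in 8.31% of the 11787 upstream windows and in 7 of 16 windows of genes of the chromosome axis and synaptonemal complex (43.8%). The 7 windows are given here around the E-box, 5′ to 3′ on the gene's own strand, with the E-box in capitals. Hormad1 carries a second copy outside the stretch printed, and Sycp3 shows 2 copies.
Sycp1 (chr3:102936169-102936214, - strand): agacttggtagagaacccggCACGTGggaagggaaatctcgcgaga
Sycp3 (chr10:88459523-88459569, + strand): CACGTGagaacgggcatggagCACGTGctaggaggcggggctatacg
Syce1l (chr8:113643153-113643198, + strand): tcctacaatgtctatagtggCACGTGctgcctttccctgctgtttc
Tex12 (chr9:50561336-50561381, - strand): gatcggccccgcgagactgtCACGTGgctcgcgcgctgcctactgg
4930447C04Rik (chr12:72917911-72917956, - strand): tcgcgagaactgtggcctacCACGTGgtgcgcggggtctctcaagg
Hormad1 (chr3:95559637-95559676, + strand): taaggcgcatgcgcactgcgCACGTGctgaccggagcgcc
Stag3 (chr5:138280319-138280364, + strand): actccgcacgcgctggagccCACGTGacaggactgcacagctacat

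The E-box went with no one direction of difference in effect. Among the 16 genes of the axis and synaptonemal complex with a window, the median effect was -0.12 in the 7 with the word and -0.13 in the 9 without it. The 7 genes with the E-box ranged from -0.13 to -0.076 and the 9 others from -0.18 to 0.0037. Over the 67 meiotic genes with a window, the median was -0.081 in the 12 with the word and -0.043 in the 55 without it, and the ranges overlapped. A word described for STRA8, CNCCTCAG, was in 7.29% of all windows and in 5 of 67 windows of meiotic genes. Among the axis genes it was found in Hormad2, where it lies on the opposite strand and is in capitals.
Hormad2 (chr11:4441164-4441211, - strand): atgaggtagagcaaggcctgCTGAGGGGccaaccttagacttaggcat

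A second word marked the interferon-response genes. GAAANNGAA is the core of the element bound by interferon regulatory factors. It was present in 6.17% of all windows and in 13 of 22 windows of the interferon-response list (59.1%). Slfn5 and Clec2d, which both rose in the knockout, are shown over the whole 250 bases, and Gbp3, Oas1a and Gbp2 around the word nearest to the start. Capitals mark the word on either strand, and overlapping copies run together.
Slfn5 (chr11:82951852-82952101, + strand): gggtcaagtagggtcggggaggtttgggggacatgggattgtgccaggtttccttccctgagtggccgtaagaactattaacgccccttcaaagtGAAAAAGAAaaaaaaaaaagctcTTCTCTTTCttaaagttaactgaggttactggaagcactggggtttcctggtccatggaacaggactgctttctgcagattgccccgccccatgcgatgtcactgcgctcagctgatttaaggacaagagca
Clec2d (chr6:129180365-129180614, + strand): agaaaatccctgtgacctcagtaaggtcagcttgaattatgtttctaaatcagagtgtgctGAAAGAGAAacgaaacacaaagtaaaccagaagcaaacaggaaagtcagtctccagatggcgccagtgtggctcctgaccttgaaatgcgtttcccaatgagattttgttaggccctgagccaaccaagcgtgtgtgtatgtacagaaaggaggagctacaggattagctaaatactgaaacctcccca
Gbp3 (chr3:142559986-142560034, + strand): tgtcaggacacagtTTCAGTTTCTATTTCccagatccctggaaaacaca
Oas1a (chr5:120907526-120907559, - strand): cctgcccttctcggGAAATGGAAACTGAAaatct
Gbp2 (chr3:142620585-142620633, + strand): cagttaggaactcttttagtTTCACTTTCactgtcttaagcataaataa

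Members with and without the word overlapped in effect. The 13 interferon-response genes with it had a median effect of 0.045 and ranged from -0.078 to 0.34, and the 9 without it had a median of 0.14 and ranged from 0.0033 to 0.22. The median was thus lower in the members with the word, a difference that was not tested. A match is a description of letters in these windows only.

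The 4 genes that rose were Clec2d, Car3, Fabp4 and Slfn5. Clec2d, a membrane lectin that is the ligand of the inhibitory NK cell receptor NKR-P1B, had an effect of 0.69 in the authors' deposited table (adjusted p 0.000519, anota2seq). In footprints from the same animals the authors' deposited table gives Clec2d an effect of 0.050, and in total RNA of other animals at day 10 an effect of 0.55 (anota2seq, adjusted p 0.0618). Clec2d was thus high in total RNA at both ages, while its footprint value lay near 0. Car3, a carbonic anhydrase abundant in fat and muscle, had 0.65 in total RNA, 0.33 in footprints and 0.29 at day 10 in the authors' deposited table (adjusted p 0.00105 at day 8, anota2seq). Fabp4, the fatty acid binding protein of fat cells, macrophages and small vessels, had 0.57, 0.29 and 0.23 in the same order in the authors' deposited table (adjusted p 0.0218 at day 8, anota2seq). Slfn5, an interferon-induced member of the Schlafen family, had 0.34, 0.28 and 0.16 in the authors' deposited table (adjusted p 0.0428 at day 8, anota2seq). Values of all 4 were above 0 in each of these 3 readouts, but only day 8 total RNA passed 0.05. Their footprint adjusted p lay between 0.980 and 0.999 (anota2seq). At day 10 it was 0.594 for Car3, 0.602 for Fabp4 and 0.208 for Slfn5 (anota2seq).

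The 4 genes that fell were Lvrn, Cdo1, Gm4969 and Pcdhgb6. Gm4969 is the gene now called Meiosin, the partner of STRA8 in starting meiosis, and it was the one gene of the meiotic lists to pass the threshold. Its effect in the authors' deposited table was -0.41 in total RNA (adjusted p 0.00573, anota2seq), -0.58 in footprints and -1.05 in total RNA at day 10 (adjusted p 0.0546). Of the 8 genes, Meiosin was the only one with a larger absolute value at day 10 than at day 8. Lvrn, which encodes the aminopeptidase laeverin, had -0.68 in total RNA, -0.85 in footprints and -0.40 at day 10 in the authors' deposited table (adjusted p 0.000522 at day 8, anota2seq). Cdo1, the cysteine dioxygenase that starts the breakdown of cysteine to taurine, had -0.71, -0.67 and -0.17 in the authors' deposited table (adjusted p 0.00163 at day 8, anota2seq). Pcdhgb6, a cell-adhesion protein of the clustered gamma protocadherins, had -0.71, -0.25 and -0.43 in the authors' deposited table (adjusted p 0.0428 at day 8, anota2seq). Lvrn, Cdo1 and Pcdhgb6 lie on chromosome 18 within 20 Mb of Ythdc2, and none of the 4 genes that rose does. All 8 genes had the same sign at day 10, but none passed an adjusted p of 0.05 there or in footprints. The footprint adjusted p was 0.254 for Lvrn, 0.518 for Cdo1 and 0.980 for Gm4969 and Pcdhgb6 (anota2seq). The day 10 adjusted p was 0.102 for Lvrn, 0.245 for Cdo1 and 0.272 for Pcdhgb6 (anota2seq). In the adult WLA comparison, made on other animals and another allele, the authors' deposited table gives an adjusted p of 0.996 for Clec2d, 0.483 for Lvrn and 0.435 for Gm4969 (DESeq2). It gives 0.848 for Cdo1, 0.884 for Fabp4 and 0.905 for Slfn5 (DESeq2), and none for Car3 and Pcdhgb6. The adult log2 fold change had the day 8 sign in Lvrn (-0.58) and Pcdhgb6 (-0.27). In the others, among them Gm4969 with 0.21, it had the opposite sign.

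**Figure D1:**
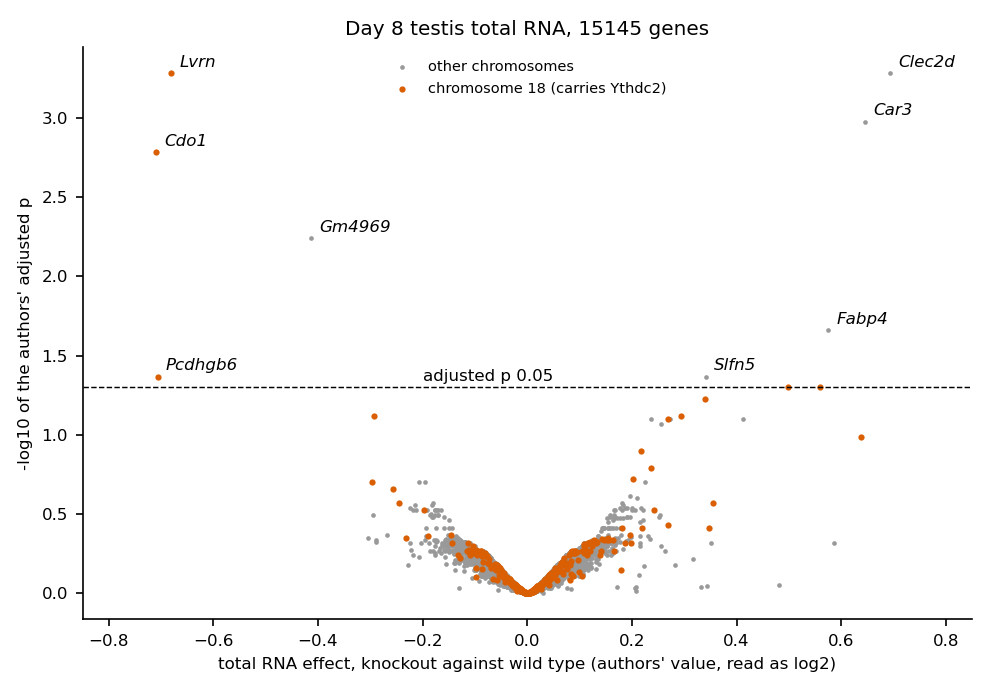
Each point is 1 of 15145 genes, with the authors' total RNA effect of knockout against wild type at day 8 on the x axis (read as log2) and -log10 of the authors' adjusted p on the y axis; orange points lie on chromosome 18, which carries Ythdc2, and the dashed line marks an adjusted p of 0.05. The 8 named genes lie above the line, 4 on each side of 0.

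**Figure D2:**
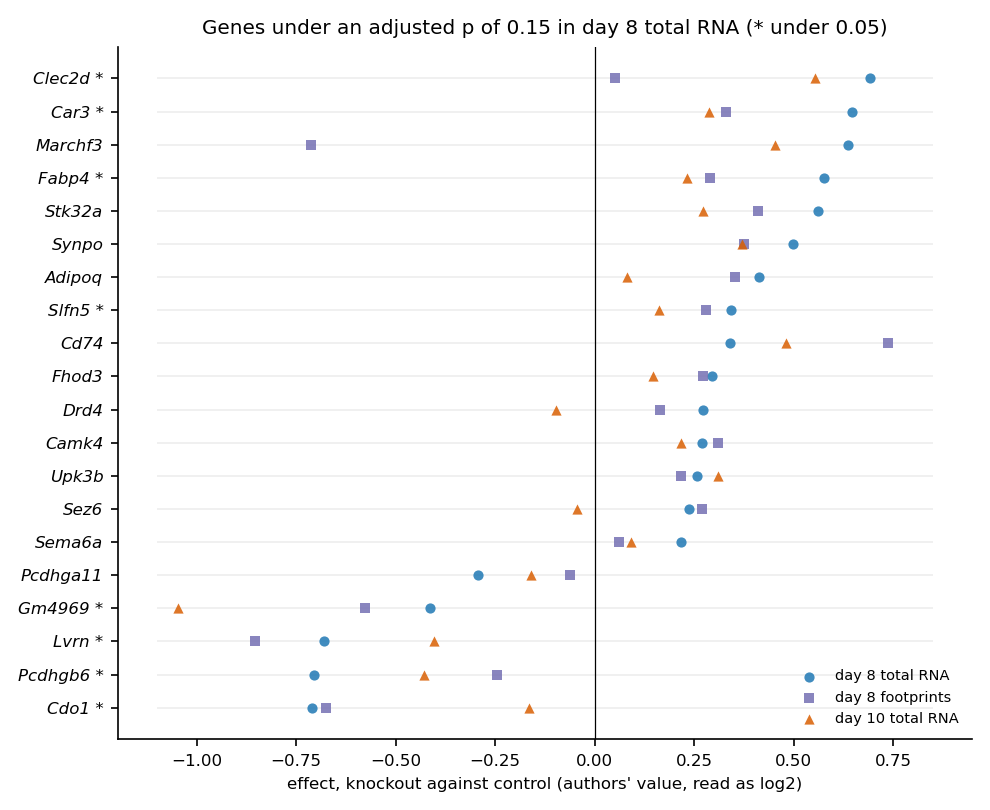
The 20 genes with an adjusted p under 0.15 in day 8 total RNA are listed by their effect, an asterisk marking the 8 under 0.05; points give the authors' effect of knockout against control, read as log2, in day 8 total RNA (circle), day 8 footprints of the same animals (square) and day 10 total RNA of other animals (triangle). The circle and triangle lie on the same side of 0 for 18 of the 20 genes, the exceptions being Drd4 and Sez6.

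The next 12 genes did not pass 0.05. Adipoq, the fat-cell hormone adiponectin, stood at 0.41 in the authors' deposited table (adjusted p 0.0800, anota2seq), and Upk3b, a uroplakin of mesothelial surfaces, at 0.26 (adjusted p 0.0855). Cd74, the invariant chain of MHC class II, stood at 0.34 in total RNA, 0.74 in footprints and 0.48 at day 10 in the authors' deposited table (adjusted p 0.0592 at day 8, anota2seq). Its value was higher in footprints than in total RNA, and the authors class it as changed in translation. Its adjusted p was 0.518 in footprints and 0.0898 for translation (anota2seq), both above 0.05. Marchf3, a ubiquitin ligase of endosomes, had opposite signs in the same animals, with 0.64 in total RNA and -0.71 in footprints in the authors' deposited table (adjusted p 0.104 in total RNA and 0.980 in footprints, anota2seq). Synpo, an actin-binding protein, stood at 0.50 and Stk32a, a kinase, at 0.56 in the authors' deposited table (both adjusted p 0.0502, anota2seq). The remaining 6 were Pcdhga11 (-0.29), Fhod3 (0.29), Drd4 (0.27), Camk4 (0.27), Sez6 (0.24) and Sema6a (0.22), by the authors' deposited table (anota2seq, adjusted p of 0.0758 to 0.127). Of all 20 genes, the authors class 12 as buffering, 3 as translation and 5 as background. Buffering is the program's name for RNA differences without a matching difference in footprints, but the footprint effects within the class varied. Lvrn had -0.68 in total RNA and -0.85 in footprints, and Adipoq 0.41 and 0.35, in the authors' deposited table. Clec2d had 0.69 and 0.050 there, and Marchf3, also in the class, had opposite signs.

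Genes of meiosis mostly lay a little below 0 in the knockout. Over 6 lists that follow the order of events, 87 genes were measured and 70 had an effect below 0, against 52.8% of all genes below 0. Their median was -0.051, and 19 of the 87 lay at -0.1 or less and 0 at 0.1 or more, against 3.13% and 3.2% of all genes. Only Meiosin, 1 of the 87, passed an adjusted p of 0.05 (anota2seq), against 0.0528% of all genes. The values that follow for other genes are therefore levels of the estimate and not called changes.

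Among the 15 measured factors of meiotic entry the median was -0.020 and 12 were below 0. Stra8 stood at -0.065 in total RNA, -0.12 in footprints and 0.20 at day 10 in the authors' deposited table, while Meiosin, its partner, was at -0.41. Rec8, the meiotic cohesin that is also turned on at entry, stood at -0.039 at day 8 and 0.27 at day 10 by the authors' deposited table. Meioc and Rbm46, the partners of YTHDC2, stood at -0.013 and -0.020 in the authors' deposited table. Mga, the scaffold of the repressor complex that binds the E-box, was the highest of the list with 0.069 in the authors' deposited table.

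The chromosome axis and synaptonemal complex showed the lowest median of the meiotic lists, -0.12, with 16 of 17 genes below 0 and 9 of 17 at -0.1 or less. Its footprint median was -0.095 and its day 10 median -0.26. The lowest members were the cohesin Rad21l with -0.18, the axis protein Sycp2 with -0.16 and the HORMA-domain protein Hormad2 with -0.14, all in the authors' deposited table. Sycp3 had -0.13 and Sycp1, the transverse filament of the complex, -0.096 in the authors' deposited table, and both windows printed above carry the E-box. The central-element genes Syce1, Syce2 and Tex12 each had -0.13 in the authors' deposited table. Trip13, the ATPase that strips HORMA proteins from the axis, was the exception with 0.0037 in the authors' deposited table. The smallest adjusted p of the list was 0.271 (anota2seq), so that no single member passed.

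Genes for making double-strand breaks came next, with a median of -0.078, 13 of 14 below 0 and 7 at -0.1 or less. Prdm9, the methyltransferase that places the breaks, had -0.19 in total RNA but 0.18 in footprints and -0.40 at day 10 in the authors' deposited table. Gm960, the gene of the SPO11 partner TOPOVIBL, had -0.15 and Tex15 -0.14 in the authors' deposited table, and Mei4 had -0.12. Spo11 itself, the enzyme that cuts, stood at -0.016 at day 8 and -0.66 at day 10 in the authors' deposited table. Ankrd31, which sets the sites of the breaking machinery, was the exception with 0.011 in the authors' deposited table.

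The lists of later steps lay nearer to 0 than those of the axis and of double-strand breaks. So did the earlier list of meiotic entry, with -0.020, so the medians did not follow the order of events. Whether low expression of late genes at day 8 holds their values near 0 was not tested. Genes of strand exchange had a median of -0.042 with 18 of 21 below 0, those of crossovers -0.058 with 10 of 15, and those that tether telomeres -0.0066 with 5 of 9. Spata22, Rad51ap2 and Dmc1 had -0.15, -0.12 and -0.11 in the authors' deposited table. Meiob, the partner of SPATA22, stood at -0.042 at day 8 and -1.16 at day 10 in the authors' deposited table. Hfm1, a helicase of crossover formation, had -0.059 and -0.55, and Terb1, a telomere tether, -0.092 and -0.66 at the same ages in the authors' deposited table. Genes of pachytene cells and spermatids, stages that follow, had 18 of 30 listed genes in the table, of which 13 were above 0 with a median of 0.034.

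**Figure D3:**
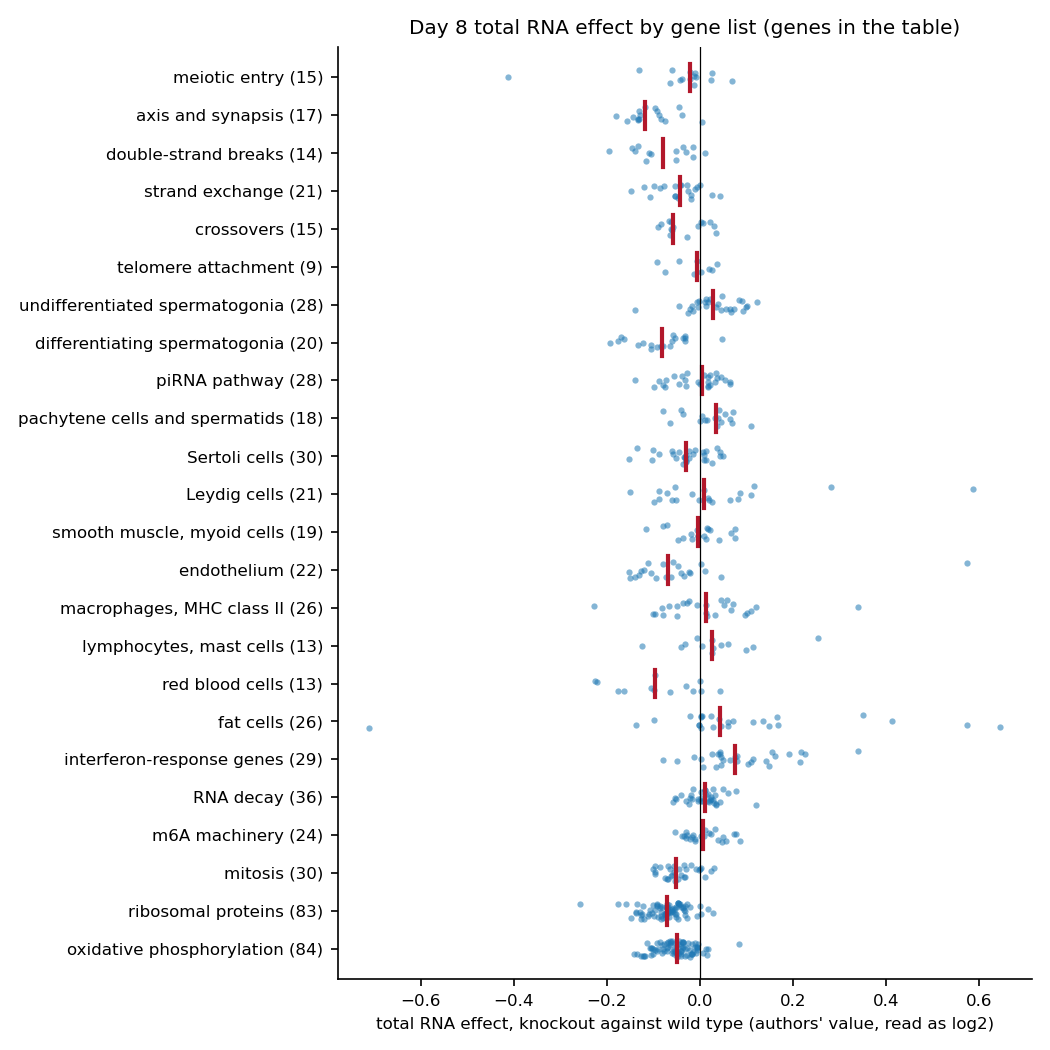
Each blue point is a gene of the list named on the left, with the number of its genes in the day 8 table in brackets, and its position gives the authors' total RNA effect of knockout against wild type, read as log2; the red bar is the list's median. The bars of the axis and double-strand break lists lie at -0.12 and -0.078, those of the interferon and fat-cell lists at 0.076 and 0.044.

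The medians of the lists of spermatogonia lay on opposite sides of 0. Genes listed as markers of differentiating spermatogonia had a median of -0.082. Of the 20, 19 were below 0, against 52.8% of all genes, and 8 lay at -0.1 or less, against 3.13%. The lowest were Crabp1, a retinoic acid binding protein, with -0.19, Rhox13 with -0.18, Prss50 with -0.17 and Zfp541 with -0.16 in the authors' deposited table. Sohlh1 and Sohlh2, transcription factors that drive differentiation, had -0.10 and -0.093, and Kit, the receptor that marks the step, -0.031 in the authors' deposited table. Dnmt3a was the exception with 0.048 in the authors' deposited table. At day 10 the median of the same list was 0.050, so the group was not below 0 at that age. Zfp541 went against this, with -0.81 at day 10 in the authors' deposited table, on the side of the axis list (day 10 median -0.26). Whether it marks differentiating spermatogonia or meiotic cells was not tested.

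Markers of undifferentiated spermatogonia, the stem and progenitor cells, had a median of 0.028, with 19 of 28 above 0. Over the 3 of its members at or above the median adult read count the median was -0.0041. Adult counts need not stand for expression at day 8, so that filter cannot show how well the other members were measured there. Gfra1 and Ret, the receptor pair for the stem-cell factor GDNF, had 0.12 and 0.10, and Tcl1 and Etv5, which act below it, 0.099 and 0.092 in the authors' deposited table. Sox3, a factor of progenitors on the way to differentiation, went the other way with -0.14 in the authors' deposited table. Genes of the retinoic acid pathway had a median of -0.022, with 14 of 20 below 0, among them the receptor Rara with -0.13 and the transporter Stra6 with -0.11 in the authors' deposited table. Genes expressed in germ cells of many stages had a median of -0.039 with 22 of 29 below 0, from Rhox13 and Magea5 (-0.17) to Tdrd7 (0.037) in the authors' deposited table. The piRNA pathway, which silences transposons, lay at 0.0052 with 13 of 28 below 0. No member of these lists passed an adjusted p of 0.05 (anota2seq, smallest 0.389).

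Mitotic genes were also on the lower side. Of 30 genes of mitosis 25 were below 0 with a median of -0.051, the lowest being Cdc20 with -0.10 and Plk1 with -0.096 in the authors' deposited table. Genes of DNA replication had a median of -0.033 with 20 of 24 below 0, and cyclins of mitosis and meiosis -0.036 with 6 of 8 below 0. Ccna2, the mitotic cyclin known to persist in germ cells without YTHDC2, stood at -0.035 at day 8 and 0.10 at day 10 in the authors' deposited table.

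The machinery that YTHDC2 belongs to lay near 0. Readers, writers and erasers of N6-methyladenosine had a median of 0.0058 over 24 genes, from Mettl14 with -0.053 to Rbm15 with 0.086 in the authors' deposited table. RNA decay factors had a median of 0.012, with 24 of 36 above 0. Smg1, the kinase of nonsense-mediated decay, was the highest with 0.12 and Xrn1 had 0.078 in the authors' deposited table. Other DEAH-box helicases and partners had a median of 0.010 over 18 genes.

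Among the somatic cells, Sertoli cells, which nurse the germ cells, had a median of -0.029 with 20 of 30 markers below 0. Hsd17b1 and Amh, the hormone of immature Sertoli cells, were lowest with -0.15 and -0.13 in the authors' deposited table, and their day 10 values were -0.41 and -0.18. Sox9 stood at 0.042 and Gata1 at 0.044 in the authors' deposited table. Leydig cells, the steroid producers between the tubules, had a median of 0.0083, with 11 of 21 above 0. Within that list, Cyp17a1 and Star, the enzyme and carrier that make androgens, stood far above the other members with 0.59 and 0.28 in the authors' deposited table (anota2seq, adjusted p 0.484 and 0.663). The same genes had 0.67 and 0.28 in footprints of these animals, while Cyp11a1, Insl3 and Hsd3b1 had 0.018, -0.060 and -0.088 in total RNA by the authors' deposited table. Despite its size the Cyp17a1 effect did not pass, and at day 10 its value was -0.0024 in the authors' deposited table. Smooth muscle and myoid genes (-0.0033) and fibroblast and matrix genes (0.0013) had medians close to that of all genes.

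Vessel and red blood cell markers tended to lie below 0. Endothelial markers had a median of -0.068, with 18 of 22 below 0 and 8 at -0.1 or less, against 3.13% of all genes. At day 10 the endothelial median was -0.0069, with 12 of 21 below 0. Esam, Pecam1, Cldn5 and Tie1, all junction proteins or receptors of endothelium, had -0.15, -0.15, -0.14 and -0.13 in the authors' deposited table. Fabp4, on the same list, was the 1 called member of 22, against 0.0528% of all genes, and rose. Red blood cell genes had a median of -0.097 with 11 of 13 below 0, led by Alas2, the haem synthesis enzyme, and Hbb-bs, an adult beta-globin, both with -0.22 in the authors' deposited table. Over the 5 members at or above the median adult read count the median was -0.029. The median of the red blood cell list without that filter was 0.10 at day 10, on the other side of 0. Macrophage and MHC class II genes had a median of 0.014, with Lyz2 (-0.23) and Cd74 (0.34) at the ends in the authors' deposited table. Without members within 20 Mb of Ythdc2, Cd74 among them, that median was -0.0064, and over the 5 members at or above the median adult read count it was -0.078. Mast-cell proteases were above 0, with Mcpt4 at 0.25, Cma1 at 0.11 and Cpa3 at 0.10 in the authors' deposited table, within a list of lymphocyte and mast cell markers with a median of 0.027.

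Fat-cell genes were on the higher side. Of the 26 measured, 3 were called, against 0.0528% of all genes, and of these Car3 and Fabp4 rose and Cdo1, which lies near Ythdc2 on chromosome 18, fell. The list had a median of 0.044 in total RNA and 0.12 in footprints, with 20 of 26 above 0 in total RNA. In total RNA 9 of the 26 lay at 0.1 or more, against 3.2% of all genes, and 2 at -0.1 or less, against 3.13%. Besides the called members, Cfd, the fat-cell protease adipsin, stood at 0.35, Plin4 and Gpd1 at 0.17 and Scd1 at 0.15 in the authors' deposited table. Pparg, the master regulator of fat cells, stood at -0.099 and Cebpa at -0.0018 in the authors' deposited table. The table has no level per group, so whether the testes of the groups differed in attached fat was not tested, nor was the part of such tissue in the Car3 and Fabp4 results.

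Interferon-response genes had 26 of 29 members above 0 and a median of 0.076. Of the 29, 12 lay at 0.1 or more, against 3.2% of all genes, and 0 at -0.1 or less, against 3.13%. Slfn5, the 1 called member of 29, against 0.0528% of all genes, rose. After it came Rtp4 with 0.23, Parp14, a mono-ADP-ribosyl transferase, with 0.22, Slfn2 with 0.22 and Irf9, an interferon regulatory factor, with 0.19 in the authors' deposited table. The classical markers Isg15, Ifit3 and Irf7 stood lower with 0.045, 0.034 and 0.026, and Bst2 (-0.078), Usp18 (-0.050) and Ifit3b (-0.013) were below 0 in the authors' deposited table. In footprints of the same animals 16 members were above 0 and 13 below, with a median of 0.048, and at day 10, where 28 members were measured, 24 were above 0 with a median of 0.041. Clec2d, the gene with the smallest adjusted p, was not on this list, although its window printed above holds the same word.

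Genes with short transcription units tended to lie below 0. Sorted by the length of the gene in RefSeq, the shortest of 10 equal groups (median 2.58 kb) had a median effect of -0.022 with 71.2% of 1495 genes below 0. The ninth group (median 94.4 kb) had the highest median, 0.015, with 37.5% below 0. The longest group (median 216 kb) stood lower again, at 0.010 with 41.7% below 0. Spearman's rho between length and effect was 0.23 over 14947 genes in day 8 total RNA, 0.044 in footprints and 0.018 in day 10 total RNA. These genes share the same 6 libraries and are not independent. Of the lists of short genes, those of ribosomal proteins and oxidative phosphorylation lay below 0 too. Ribosomal protein genes had a median of -0.070 with 80 of 83 below 0, but 0.018 in footprints, and oxidative phosphorylation genes -0.050 with 79 of 84 below 0. Against genes of like length the medians were -0.050 and -0.038, so both stayed below 0. Histone genes, the shortest list with a median length of 0.498 kb, stood at -0.0058, and at 0.016 against genes of like length. The same adjustment left the axis and synaptonemal complex at -0.11, differentiating spermatogonia at -0.079, double-strand break genes at -0.075 and the interferon-response genes at 0.074. Whether the length pattern comes from the libraries or the tissue was not tested.

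**Figure D4:**
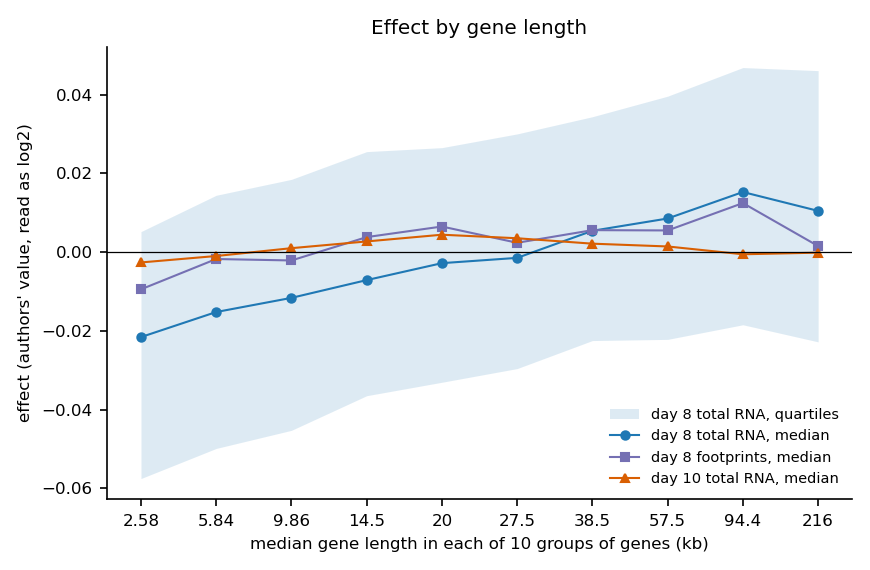
Genes were sorted into 10 equal groups by gene length, shown on the x axis by the median length in kb; lines give the median effect of knockout against control (read as log2) in day 8 total RNA, day 8 footprints and day 10 total RNA, and the band spans the quartiles of day 8 total RNA. The day 8 total RNA line runs from -0.022 in the shortest group to 0.015 in the ninth and back to 0.010 in the longest.

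The surroundings of Ythdc2 on chromosome 18 held many of the large effects. Of the 100 genes with the largest absolute effect, 26 were neighbours of Ythdc2 within 20 Mb, with 17 higher and 9 lower in the knockout, while that stretch holds 1.55% of all placed genes. Within 20 Mb, 55 of 231 genes (23.8%) had an absolute effect of 0.1 or more, against 895 of 14716 elsewhere (6.08%). The share was 29% within 5 Mb, 25.6% at 15 to 20 Mb, 13% at 20 to 30 Mb and 8.6% beyond. The 19 other chromosomes with at least 100 genes had between 4.45% and 7.92%. Of the 20 genes under an adjusted p of 0.15, 11 lay within 20 Mb, 7 higher and 4 lower, among them Lvrn, Cdo1, Synpo, Stk32a, Cd74, Marchf3 and Camk4. Neighbours in the gamma protocadherin cluster stood on both sides of 0, with Pcdhgb6 at -0.71, Pcdhga11 at -0.29 and Pcdhga4 at 0.35 in the authors' deposited table. Over all 47 clustered protocadherins, of which the alpha and gamma ones share their last exons so that reads may be split between them, the median was 0.013, with 12 at 0.1 or more and 4 at -0.1 or less, all of them in the stretch where 23.8% of genes reached 0.1 in size. The ribosomal protein gene with the lowest effect, Rps14 (-0.26 in the authors' deposited table), and Stard4 (0.35), a sterol carrier, lie on this chromosome too. So do Mcc (-0.30), Fbn2 (-0.24) and Slc27a6 (-0.23), none of them under an adjusted p of 0.15. Loss of Ythdc2 and the stretch of chromosome inherited with the allele cannot be told apart in this design.

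**Figure D5:**
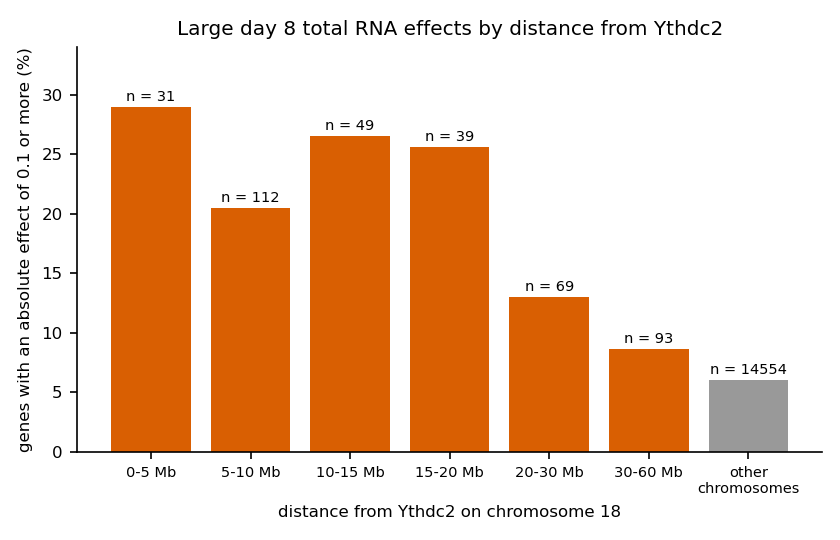
Bars give the percentage of genes with an absolute day 8 total RNA effect of 0.1 or more, by distance from Ythdc2 along chromosome 18 in Mb (orange) and on all other chromosomes (grey), with the number of genes above each bar. The bars within 20 Mb lie between 20.5% and 29%, and the grey bar at 6.03%.

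Other large effects did not pass the threshold. On the higher side were S100a8, a calcium-binding protein of neutrophils, with 0.48, the stefins Cstdc5 and Stfa1 with 0.34 and 0.33, and Capn11, a testis calpain, with 0.32 in the authors' deposited table (anota2seq, adjusted p of 0.606 to 0.913). S100a8 had 0.48 in footprints as well, and Cstdc5 and Stfa1 had 0.79 and 0.75 there in the authors' deposited table. On the lower side were Marco, a macrophage receptor, with -0.31, and Smad6 and Id3, both targets of BMP signalling, with -0.29 each in the authors' deposited table (anota2seq, adjusted p of 0.320 to 0.460). Serpina3g stood at -0.29, C1qtnf4 at -0.27, Spsb1 at -0.22, Gpnmb at -0.22 and Tspan15 at -0.22 in the authors' deposited table. Histone genes, most of them of the clusters whose mRNAs lack a poly(A) tail, had a median of -0.0058 in total RNA with 60 of 66 below 0, and -0.20 in footprints. The lowest of them were H1f10 (-0.17) and H1f0 (-0.10) in the authors' deposited table, which lie outside the clusters, and over the 3 members at or above the median adult read count the median was -0.066. Immediate-early genes, which respond within minutes to handling of tissue, had a median of -0.020 with 19 of 27 below 0, from Egr1 (-0.15) to Egr3 (0.12) in the authors' deposited table, and 0.047 at day 10. Glycolysis genes had a median of -0.038, p53 targets and apoptosis genes -0.0099, heat-shock genes -0.0046 and genes of the integrated stress response -0.0099. Epididymal genes, markers of attached duct, had only 5 of 25 listed genes in the table, with a median of -0.0076.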

How the data were processed

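Testis total RNA and ribosome footprints of the same juvenile animals were sequenced. Reads were aligned with STAR to mm10, per the submitters' processing notes; libraries were made by removing rRNA or by picking poly(A) RNA, and the protocols in the labels do not assign either way to a library. The authors deposited anota2seq 1.14.0 effects with p-values adjusted for multiple testing, for 15145 genes at day 8, per the file headers. The authors' description names no base for the effects, so they were taken as log2 values as deposited; a transformation may have narrowed them, and they are not plain folds. At day 10 the controls were 2 heterozygous animals and 1 wild type. Counts of the 6 adult libraries (33331987 to 43707798 counted reads) were deposited by the authors with DESeq2 results, and served here for symbols and a filter. The depth of the day 8 libraries is unknown, and precision is limited by 3 animals a group. Animal numbers in the labels show that the replicates are different mice.

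No new test was made, since the tables give no value per animal; the authors' adjusted p with a threshold of 0.05 was used. Symbols came from the adult table for 14986 identifiers, from it without the version number for 17 and from a gene name table for 141. Positions and lengths came from RefSeq GRCm38.p6 for 98.7% of genes. There were 49 gene lists, described by counts and medians beside those of all genes; 1 list, of mitochondrially encoded genes, had no member in the table. Genes and lists were chosen with earlier results of these data known. Genes to name were those under 0.05 and 0.15, the 20 largest effects each way, and per list the 4 largest, up to 2 exceptions and members under 0.15. Not all of these are printed in the text, and for some lists only the median is given. Which of them to print, and any further gene, was picked with the values in view. The promoter search used 8 words over 250 bases; longer words were also looked at and are not reported. For 2337 genes with more than 1 window the first listed was used. The counting was tested on simulated shifts. Alternatives were other thresholds, a minimum effect, leaving out chromosome 18, genes near Ythdc2 or shared members, means, centring, filters by adult count, and comparison with genes of like length; the last and the filter on adult counts under 10 were chosen after seeing the data. Python 3.11.15 with pandas 2.3.3, numpy 2.4.6, scipy 1.17.1 and matplotlib 3.10.9 was used.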

Additional observations from a re-analysis of the deposited data

How the results depend on the processing

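The 8 genes under an adjusted p of 0.05 became 18 under 0.1 and 20 under 0.15, and 5 without chromosome 18; a minimum effect of 0.2, or leaving out genes with an adult mean count under 10, left 8. The share of the largest effects within 20 Mb of Ythdc2 was 26% for 100 genes, 38% for 50 and 15.5% for 200, and 11% for 100 genes within 10 Mb. Of 48 list medians, 2 changed sign with the mean, 0 with centring, 1 of 47 without genes within 20 Mb of Ythdc2, 0 without shared members, 10 of 46 with members at or above the median adult count and 11 against genes of like length. Among the 19 lists with a median of at least 0.03 in size, the endothelial one alone changed sign, at 0.0030 in place of -0.068 with the adult filter, which left 1 of its 22 members. The same filter moved red blood cells to -0.029 (5 of 13 members), double-strand break genes to -0.052 (9 of 14) and interferon-response genes to 0.043 (1 of 29). Of the smaller medians it turned undifferentiated spermatogonia to -0.0041 (3 of 28), macrophages and MHC class II to -0.078 (5 of 26) and lymphocytes and mast cells to -0.031 (1 of 13). Adult counts need not stand for expression at day 8, so this filter does not sort genes by how well they were measured at that age. The list that changed sign without genes near Ythdc2 was that of macrophages and MHC class II, at -0.0064. With the mean, crossover genes stood at -0.032, endothelium at -0.042 and fat cells at 0.080; without shared members, double-strand break genes stood at -0.051. No paired analysis was possible because the day 8 table holds no values per animal, and for the same reason leaving out each animal was not run. The depth of the day 8 libraries is unknown, so small effects of weakly expressed genes cannot be told from counting noise here.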
